A study of Mus musculus with 6 samples.

Results

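Cadherins and protocadherins are calcium-dependent adhesion receptors that cells use to bind their neighbours. The 91 genes described here are the rows whose symbol is Cdh or Pcdh followed by a number, or Pcdha, Pcdhb or Pcdhg followed by an isoform name, out of 21929 genes measured. RNA was sequenced from L929, a mouse fibroblast line, after co-culture. One group, Biotin-positive, is 3 libraries of L929 cells labelled as having interacted with a partner called MFCSTCL, a name the labels do not spell out. The other, Biotin-negative, is 3 libraries of L929 cells labelled as not having interacted with tumour. Both groups share the line and the co-culture, no genetic change is named for either, and how biotin was attached is not given in the sources used here.

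Classical cadherins join cells through their outermost domain and hold the actin skeleton through beta-catenin and alpha-catenin bound to their cytoplasmic tail. Type I members such as E-cadherin and N-cadherin are the best known, and fibroblasts are usually described as using N-cadherin and the type II member cadherin 11. Protocadherins lack the catenin-binding tail. The clustered alpha, beta and gamma protocadherins lie side by side at a single locus, where each variable exon has its own promoter, and in neurons they give every cell its own combination of surface receptors. The alpha and gamma variable exons are spliced to constant exons that code for a shared tail, whereas each beta gene codes for its protein in a single exon.

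Values are FPKM, a unit that divides fragments by the length of the gene and the size of the library, as the authors deposited them, so levels of different genes are compared per length. The FPKM of a library summed to between 349753 and 356681 in the Biotin-positive group and to between 337771 and 340511 in the Biotin-negative group, and reads per library are unknown. The 91 genes together made up 73.9 to 76.1 FPKM in Biotin-positive libraries and 95.1 to 99.9 FPKM in Biotin-negative ones. Whether replicate libraries stem from different cultures is not labelled, and p-values therefore measure library-to-library spread alone, possibly technical in origin. In bulk RNA, fewer cells with a transcript and less transcript per cell cannot be told apart. Of 12 fibroblast markers 7 reached testing, of which 2 rose and 5 fell (median log2 difference -0.88). Of all 11029 tested genes, 37.8% were called higher and 36.1% lower. Vim, the highest, rose to 1418 ± 43.5 FPKM in Biotin-positive cells, against 658 ± 14.0 FPKM in Biotin-negative cells, and S100a4 rose as well. Col3a1 fell to 58.2 ± 0.943 FPKM in Biotin-positive cells, against 208 ± 5.94 FPKM in Biotin-negative cells, and Col1a1, Col1a2, Pdgfra and Pdgfrb also fell, while Dcn, Lum and Thy1 stayed at or under 0.293 FPKM in every library. Of 26 epithelial markers, Krt7 was at 24.7 ± 1.18 FPKM in Biotin-positive and 0.236 ± 0.0759 FPKM in Biotin-negative cells, and Krt8 at 20.8 ± 0.355 FPKM in Biotin-positive and 0.0362 ± 0.0153 FPKM in Biotin-negative cells (SD, n = 3 each). The 24 other epithelial markers summed to between 1.66 and 2.30 FPKM in Biotin-positive libraries and to between 2.14 and 2.56 FPKM in Biotin-negative ones, with Epcam and Krt18 at or under 0.0263 FPKM throughout. Their part in the differences below was not tested.

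Few of the 91 receptors were expressed. In 16 of them the mean reached 1 FPKM in at least 1 group, and in 53 it stayed under 0.1 FPKM in both, including 10 genes listed at 0 in all 6 libraries. Of all 21929 genes, 22.2% were listed at 0 in all 6. Counted by single library rather than by group mean, between 10724 and 10862 of the 21929 genes reached 1 FPKM. The beta protocadherins supplied 8 of the 16, the non-clustered protocadherins 4, the cadherins outside type I and type II 2, and the type II cadherins and the gamma cluster 1 each. No classical type I cadherin and no alpha protocadherin reached 1 FPKM in either group mean. The highest levels were those of Pcdhgc3, at about 30 FPKM in both groups, and Pcdh1, and each of the other 14 averaged under 10 FPKM.

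**Figure D1:**
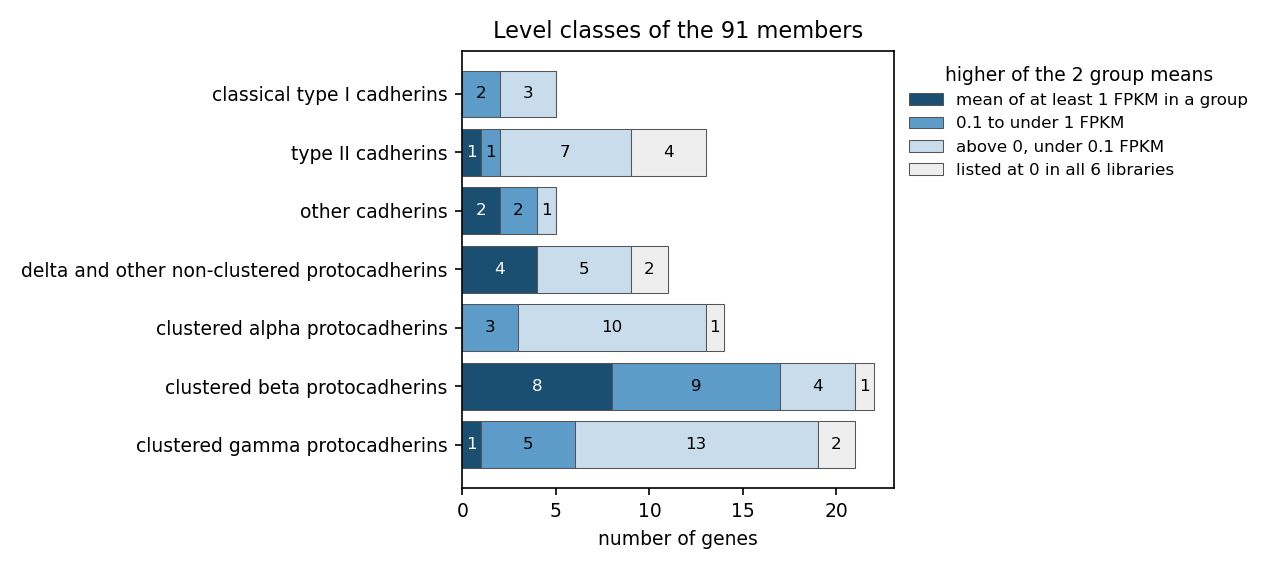
Number of genes (horizontal axis) in each of 7 subfamilies, split by the higher of the mean FPKM values of the Biotin-positive and Biotin-negative groups. Members with at least 1 FPKM, the darkest segments, number 16 in all, and 8 of them are beta protocadherins.

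The same 16 genes passed the filter, which asked for 1 FPKM or more in 3 or more libraries, and were tested with limma on log2(FPKM + 1). At a Benjamini-Hochberg adjusted p of 0.05 over all tested genes, 4 rose in Biotin-positive cells, namely Pcdh7, Cdh13, Cdh17 and Pcdh10, and 11 fell, namely Pcdh1, Pcdh19, Cdh24 and 8 beta protocadherins. Pcdhgc3 was not called. Among all 11029 tested genes 73.9% were called, 37.8% as higher and 36.1% as lower, so a call by itself does not set these receptors apart. In 8 of the 16 the mean reached 1 FPKM in only 1 group, and such genes enter the test through the group where they are high. The members that rose are all of this kind. Groups did not overlap for 15 of the 16, against 76.9% of all tested genes. Of the 81 members above 0 in any library, 7 were higher and 29 lower without overlap. Among all genes above 0 in any library, 60.4% had groups that did not overlap, in either direction. With a minimum of 0.1 FPKM in 3 libraries, 33 members were tested, of which 6 rose and 21 fell, where 69.7% of all 13103 such genes were called and 33.5% were called lower. With the 1 FPKM minimum set on the mean over all 6 libraries instead, 13 members were tested, of which 2 rose and 10 fell.

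**Figure D2:**
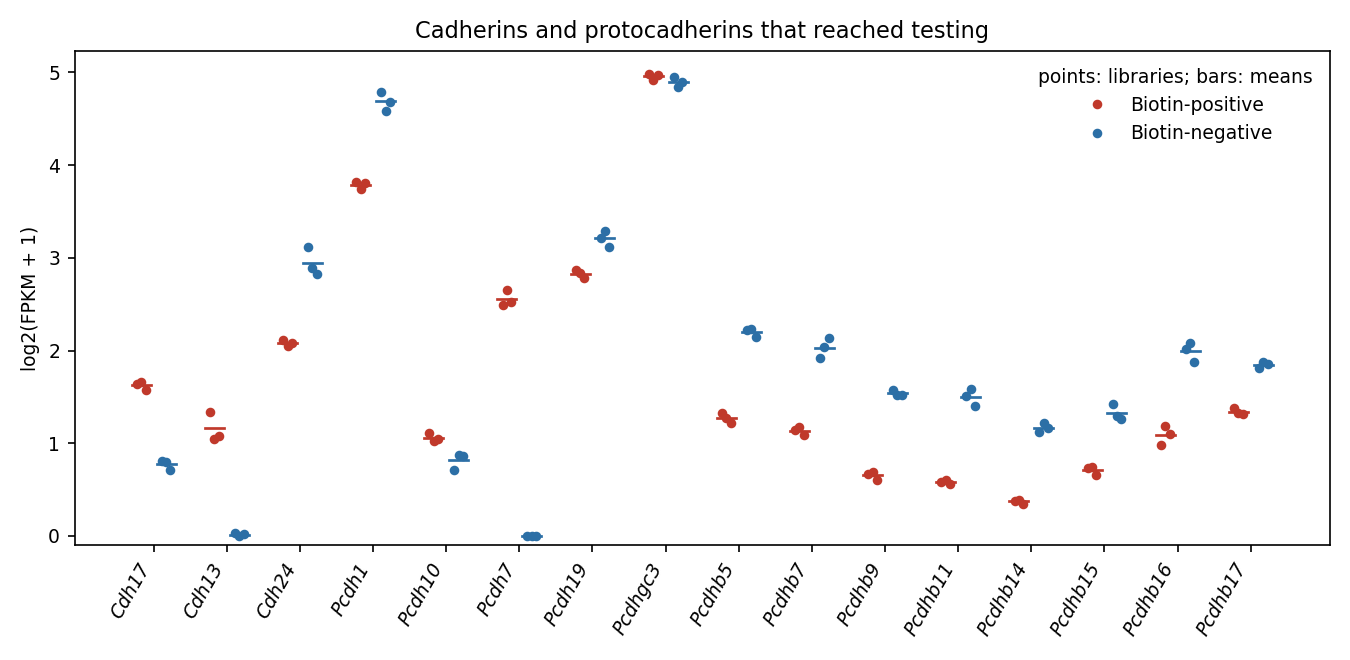
Level in log2(FPKM + 1) of the 16 tested members in each library, Biotin-positive to the left of Biotin-negative for each gene, with bars at the log2 of the group mean plus 1. The groups are apart for every gene except Pcdhgc3, near 5 on this scale.

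Classical cadherins that bind catenins were scarce. N-cadherin, Cdh2, the type I member of mesenchymal cells, was at 0.906, 0.994 and 1.02 FPKM in the Biotin-positive libraries, against 0.145, 0.132 and 0.123 FPKM in Biotin-negative libraries. All 3 Biotin-positive libraries lay above all 3 Biotin-negative ones, with a ratio of means of 7.31. It missed the filter, and with the 0.1 FPKM minimum its log2 difference was 0.80 (SE 0.0512, limma adjusted p = 2.76e-06). VE-cadherin, Cdh5, the type II cadherin of endothelial junctions, was at 0.432, 0.539 and 0.737 FPKM in Biotin-positive libraries, against 0, 0.115 and 0.0120 FPKM in Biotin-negative ones. Here too the groups did not overlap (log2 difference 0.59, SE 0.0817, limma adjusted p = 0.000281 with that minimum). Cdh5 met that minimum through the Biotin-positive group, where it is high, so its p-value is no independent support for a rise. Of 10 endothelial markers, Eng alone reached testing, at 121 ± 2.31 FPKM in Biotin-positive and 108 ± 4.16 FPKM in Biotin-negative cells, and Cldn5 and Emcn were listed at 0 throughout.

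The remaining type I members, named here after their values were seen, were at low levels. E-cadherin, Cdh1, the adhesion receptor of epithelia, was listed at 0 in every Biotin-positive library and reached at most 0.0227 FPKM in a Biotin-negative one. P-cadherin, Cdh3, lay between 0.0316 and 0.126 FPKM in Biotin-positive libraries and between 0.205 and 0.272 FPKM in Biotin-negative libraries, so the groups did not overlap (log2 difference -0.22, SE 0.0552, limma adjusted p = 0.00713 with the 0.1 FPKM minimum). Cdh3 met that minimum through the Biotin-negative group, where it is high. R-cadherin (Cdh4) and M-cadherin (Cdh15) were at or under 0.0266 FPKM in all libraries. Cadherin 11, Cdh11, was listed at 0 in every Biotin-positive library and at no more than 0.0171 FPKM in the Biotin-negative ones.

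Cdh24, a type II cadherin that binds catenins, was the highest catenin-binding cadherin in these cells. It fell to 3.33, 3.14 and 3.22 FPKM in the Biotin-positive libraries, against 7.64, 6.38 and 6.10 FPKM in the Biotin-negative ones. The Biotin-negative mean was 2.08 times the Biotin-positive mean, without overlap (log2 difference -0.86, SE 0.0791, limma adjusted p = 1.48e-05). The gene lies on chromosome 14 (54631231 to 54641364, ENSMUSG00000059674), and none of its exonic bases is shared with another annotated gene. The 11 type II members other than Cdh24 and Cdh5 stayed at or under 0.113 FPKM in every library, and 4 of them were listed at 0 throughout.

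Of the 5 cadherins outside type I and type II, Cdh17 and Cdh13 rose and the others were not tested. Cdh17, liver-intestine cadherin, which mediates adhesion of intestinal epithelium without catenins, rose to 2.12, 2.16 and 1.97 FPKM in Biotin-positive libraries, against 0.747, 0.736 and 0.637 FPKM in Biotin-negative libraries. The ratio of means was 2.95 (log2 difference 0.85, SE 0.0625, limma adjusted p = 3.59e-06). Cdh13, T-cadherin, which is held in the membrane by a lipid anchor and binds adiponectin, was at 1.53, 1.06 and 1.12 FPKM in Biotin-positive libraries, against 0.0190, 0 and 0.0139 FPKM in Biotin-negative libraries. It went with a log2 difference of 1.14 (SE 0.0864, limma adjusted p = 4.50e-06). In both genes every Biotin-positive library lay above every Biotin-negative one. Both entered the test through the Biotin-positive group alone, so their p-values are no independent support for a rise. Cdh23, whose protein forms the tip links of hair cells together with protocadherin 15, was at 0.853, 0.624 and 0.634 FPKM in Biotin-positive libraries, against 1.16, 0.789 and 1.03 FPKM in Biotin-negative libraries. These ranges overlapped and the gene was under the filter, and with the 0.1 FPKM minimum it was called lower (log2 difference -0.22, SE 0.0872, limma adjusted p = 0.0480). Its partner Pcdh15 did not exceed 0.121 FPKM in any library.

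Non-clustered protocadherins changed in both directions. Pcdh7, a delta-1 protocadherin known to bind protein phosphatase 1, was at 4.61, 5.27 and 4.74 FPKM in Biotin-positive libraries, while all 3 Biotin-negative libraries listed it at 0. Its fitted log2 difference of 2.55 (SE 0.0651, limma adjusted p = 1.08e-08) depends on the added value of 1, and no fold is given. Pcdh7 entered the test through the Biotin-positive group alone, so its p-value is no independent support for a rise. The gene lies on chromosome 5 (57717967 to 58133230, ENSMUSG00000029108), and 21.1% of its exonic length overlaps exons of 4932441J04Rik on the other strand. Whether counting used strand is not given in the sources used here, so reads of these genes may not be told apart there. Pcdh10, a delta-2 protocadherin that binds the WAVE complex through Nckap1, was at 1.16, 1.03 and 1.06 FPKM in Biotin-positive libraries, against 0.633, 0.826 and 0.825 FPKM in Biotin-negative libraries. The groups did not overlap but were close (log2 difference 0.24, SE 0.0702, limma adjusted p = 0.0124), and under quantile normalization the call was lost (log2 difference 0.14, limma adjusted p = 0.0992). Pcdh10 too entered the test through the Biotin-positive group alone, with the same limit on its p-value.

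Pcdh1, a delta-1 protocadherin known from airway epithelium, was the second highest of the 91 genes. It fell to 13.1, 12.4 and 13.0 FPKM in Biotin-positive libraries, against 26.7, 23.0 and 24.5 FPKM in Biotin-negative libraries, which is a Biotin-negative mean 1.93 times the Biotin-positive mean (log2 difference -0.89, SE 0.0563, limma adjusted p = 1.41e-06). Pcdh19, a delta-2 protocadherin whose loss causes an epilepsy in humans, fell to 6.29, 6.14 and 5.90 FPKM in Biotin-positive libraries, against 8.29, 8.78 and 7.69 FPKM in Biotin-negative ones (log2 difference -0.38, SE 0.0592, limma adjusted p = 0.000416). Every Biotin-positive library lay below every Biotin-negative one for these genes. The 7 other non-clustered protocadherins were at or under 0.121 FPKM in each library, and 2 of them were listed at 0 in all 6.

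RefSeq promoter windows were used for 22 of the 91 genes, 4 of which are tested members, and those of the other members, among them Pcdh1, Cdh2, Pcdh12 and the clustered genes, were not analysed here. Their sequences are shown because they lie in front of non-clustered receptors that moved in opposite directions. Each runs 5′ to 3′ on the gene's strand (GRCm38.p6) and ends just before the outermost annotated start, which leaves 136 bases with 2 CG dinucleotides for Pcdh7 and 250 bases for each of the others, and capitals mark CG dinucleotides. The Pcdh7 window is chr5:57717831-57717966 on the plus strand, that of Pcdh10 is chr3:45378148-45378397 on the plus strand, that of Pcdh19 is chrX:133688994-133689243 on the minus strand and that of Cdh24 is chr14:54641365-54641614 on the minus strand.
Pcdh7: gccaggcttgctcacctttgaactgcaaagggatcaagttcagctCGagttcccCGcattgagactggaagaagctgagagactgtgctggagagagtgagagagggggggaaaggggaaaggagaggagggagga
Pcdh10: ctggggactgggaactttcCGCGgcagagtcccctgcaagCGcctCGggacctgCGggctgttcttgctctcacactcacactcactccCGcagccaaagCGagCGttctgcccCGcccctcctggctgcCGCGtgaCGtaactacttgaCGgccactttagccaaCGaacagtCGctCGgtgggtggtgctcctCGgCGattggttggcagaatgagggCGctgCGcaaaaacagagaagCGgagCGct
Pcdh19: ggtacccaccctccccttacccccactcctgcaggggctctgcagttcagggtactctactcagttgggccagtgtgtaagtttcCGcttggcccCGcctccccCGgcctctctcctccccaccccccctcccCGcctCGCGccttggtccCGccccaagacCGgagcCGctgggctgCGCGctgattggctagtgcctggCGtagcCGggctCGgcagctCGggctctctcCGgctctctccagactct
Cdh24: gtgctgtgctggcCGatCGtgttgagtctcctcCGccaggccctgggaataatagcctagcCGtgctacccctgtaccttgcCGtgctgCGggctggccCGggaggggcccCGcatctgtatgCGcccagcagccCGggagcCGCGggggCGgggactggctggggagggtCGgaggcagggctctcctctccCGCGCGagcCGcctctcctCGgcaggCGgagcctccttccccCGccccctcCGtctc
Counted over the whole 250 bases before the RefSeq start, of which the Pcdh7 stretch shows only a part, Pcdh7 held 7 CG dinucleotides, Pcdh10 held 22, Pcdh19 held 16 and Cdh24 held 22, and the median over 32851 windows was 6. The E-box letters CAGGTG, which Snail and ZEB repressors bind in the E-cadherin promoter, were searched on both strands, as were the TEAD letters GGAATG. Neither was in any of these 4 windows, and of all windows 17.2% held CAGGTG and 12.6% held GGAATG. Over the 22 members with a window, 2 held CAGGTG and 3 held GGAATG.

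Beta protocadherins were the subfamily with the most genes at 1 FPKM or more, though not the highest summed FPKM, and every one of their 8 tested genes fell. Summed over the 22 beta genes, the level was 9.40, 9.26 and 8.29 FPKM in Biotin-positive libraries and 22.2, 23.7 and 22.4 FPKM in Biotin-negative libraries. Of all 11029 tested genes, 36.1% were called lower. Each of those 8 was without overlap between the groups, and 4 of them averaged at least 1 FPKM in both groups. The other 4, Pcdhb9, Pcdhb11, Pcdhb14 and Pcdhb15, entered the test through the Biotin-negative group alone. Their p-values are therefore no independent support for a fall. In mean level, 21 of the 22 genes were lower in Biotin-positive cells, and Pcdhb1 was listed at 0 throughout. Of the 17 with a Biotin-negative mean of at least 0.1 FPKM, 14 were lower without overlap between the groups, where 37.6% of all 12626 genes chosen by the same minimum were. Such a minimum favours genes that are high in Biotin-negative cells. The beta genes are neighbours at 1 locus and are not independent of each other.

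**Figure D3:**
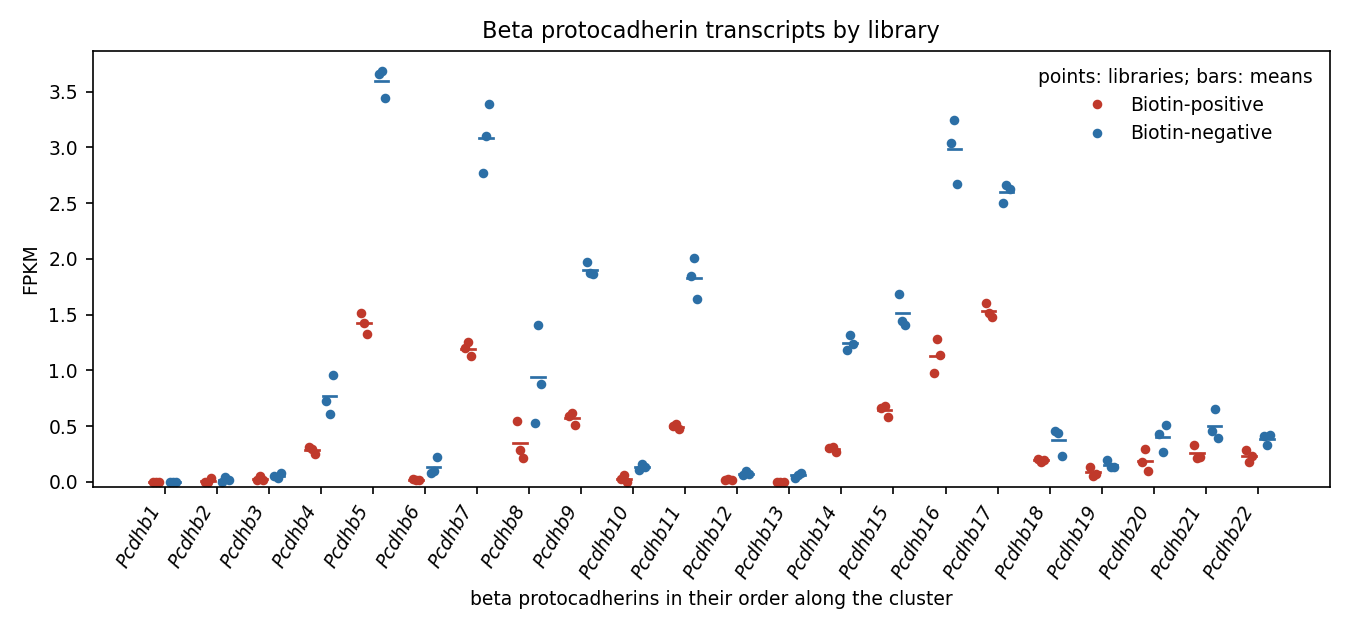
FPKM of the 22 beta protocadherins in each library, in their order along chromosome 18, Biotin-positive to the left of Biotin-negative for each gene, with bars at group means. Expressed genes stand among near-silent ones, and Pcdhb5, Pcdhb7, Pcdhb16 and Pcdhb17 are the highest in both groups.

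The highest beta gene in Biotin-negative cells, Pcdhb5, fell to 1.51, 1.42 and 1.33 FPKM in the Biotin-positive libraries, against 3.66, 3.68 and 3.44 FPKM in the Biotin-negative ones (log2 difference -0.92, SE 0.0608, limma adjusted p = 1.86e-06). Pcdhb7 was at 1.20, 1.26 and 1.13 FPKM in Biotin-positive libraries and at 2.77, 3.10 and 3.39 FPKM in Biotin-negative libraries (limma adjusted p = 6.47e-06). Pcdhb16 was at 0.972, 1.28 and 1.14 FPKM in Biotin-positive libraries, against 3.04, 3.24 and 2.67 FPKM in Biotin-negative libraries (limma adjusted p = 1.31e-05). In each of these genes the highest Biotin-positive library stayed below the lowest Biotin-negative one.

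Ratios of the group means differed among the beta genes. Among the 8 tested genes Pcdhb14 had the largest ratio, with 0.302, 0.313 and 0.270 FPKM in Biotin-positive libraries and 1.18, 1.32 and 1.24 FPKM in Biotin-negative libraries, a Biotin-negative mean 4.23 times the Biotin-positive mean (log2 difference -0.79, SE 0.0606, limma adjusted p = 4.61e-06). Pcdhb17 had the smallest of the 8, with 1.61, 1.51 and 1.48 FPKM in Biotin-positive libraries and 2.50, 2.66 and 2.63 FPKM in Biotin-negative libraries, a ratio of 1.69 (log2 difference -0.51, SE 0.0580, limma adjusted p = 6.11e-05). Pcdhb14 and Pcdhb17 were both called, and the difference between their falls was not tested. Between them lay Pcdhb11, with 0.497, 0.515 and 0.473 FPKM in Biotin-positive and 1.85, 2.01 and 1.64 FPKM in Biotin-negative libraries (limma adjusted p = 4.02e-06). Pcdhb9 had 0.589, 0.615 and 0.514 FPKM in Biotin-positive and 1.97, 1.87 and 1.87 FPKM in Biotin-negative libraries (limma adjusted p = 2.35e-06). Pcdhb15 had 0.660, 0.680 and 0.583 FPKM in Biotin-positive and 1.68, 1.44 and 1.41 FPKM in Biotin-negative libraries (limma adjusted p = 5.12e-05). These genes, like Pcdhb14, averaged under 1 FPKM in Biotin-positive cells and entered the test through the Biotin-negative group alone. The order of the 22 beta genes by level was much the same in both groups (Spearman's rho 0.97 over 22 genes, which share the libraries and the locus).

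The beta genes under the filter, except Pcdhb1, likewise had a lower mean in Biotin-positive cells. Pcdhb4 was at 0.313, 0.292 and 0.249 FPKM in Biotin-positive libraries, against 0.725, 0.613 and 0.963 FPKM in Biotin-negative libraries, without overlap (limma adjusted p = 0.000893 with the 0.1 FPKM minimum). Pcdhb21 had 0.328, 0.213 and 0.223 FPKM in Biotin-positive and 0.452, 0.657 and 0.391 FPKM in Biotin-negative libraries, and Pcdhb22 had 0.288, 0.180 and 0.230 FPKM in Biotin-positive and 0.408, 0.331 and 0.424 FPKM in Biotin-negative libraries. Pcdhb18 had 0.205, 0.182 and 0.199 FPKM in Biotin-positive and 0.453, 0.435 and 0.234 FPKM in Biotin-negative libraries. These genes were also apart between the groups, with limma adjusted p of 0.0177 for Pcdhb21, 0.0265 for Pcdhb22 and 0.0361 for Pcdhb18 at that minimum. The ranges overlapped for Pcdhb8, with 0.542, 0.283 and 0.216 FPKM in Biotin-positive and 0.531, 1.41 and 0.878 FPKM in Biotin-negative libraries. They overlapped as well for Pcdhb20, with 0.174, 0.296 and 0.0986 FPKM in Biotin-positive and 0.426, 0.269 and 0.512 FPKM in Biotin-negative libraries. Both were nevertheless called lower at the 0.1 FPKM minimum, with limma adjusted p of 0.0212 for Pcdhb8 and 0.0367 for Pcdhb20. Of the 22 beta genes 20 share no exonic base with another gene on their strand, and the exceptions are Pcdhb21 and Pcdhb22, which overlap each other.

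Pcdhgc3 dominated the gamma cluster and did not follow the beta genes beside it. It belongs to the C-type isoforms, which are expressed more evenly between cells than other clustered protocadherins. It was at 30.6, 29.2 and 30.3 FPKM in the Biotin-positive libraries, against 29.9, 27.7 and 28.7 FPKM in Biotin-negative libraries, and these ranges overlapped. The log2 difference was 0.06 (95% interval -0.03 to 0.15, limma adjusted p = 0.205), and its sign turned to -0.000454 with libraries rescaled to an equal sum. Pcdhgc3 made up 97.3, 97.2 and 98.4% of the summed gamma FPKM in Biotin-positive libraries and 97.0, 95.8 and 93.6% in Biotin-negative ones. A share of 38.5% of its exonic length is held in common with other genes of the gamma cluster on the same strand, and 28.4% with a gene on the other strand. How reads in those exons were assigned is not given in the sources used here, so its level and its excess over the other gamma genes are uncertain.

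The 20 other gamma genes did not exceed 0.489 FPKM in any library, and 2 were listed at 0 in all. Their means were higher in Biotin-positive cells for 7 and lower for 11. In the gamma cluster, 0 genes were higher and 5 lower without overlap between the groups. Among all genes above 0 in any library, 60.4% had groups that did not overlap, in either direction. Summed, the 20 gamma genes came to 0.842, 0.831 and 0.504 FPKM in Biotin-positive libraries, against 0.921, 1.23 and 1.95 FPKM in Biotin-negative libraries. The alpha cluster was equally low, at 0.592, 0.842 and 1.09 FPKM summed over 14 genes in Biotin-positive libraries and at 1.26, 1.27 and 1.14 FPKM in Biotin-negative libraries. Most of that was Pcdha8, with 0.386, 0.528 and 0.930 FPKM in Biotin-positive libraries and 0.673, 0.895 and 0.845 FPKM in Biotin-negative libraries, which overlapped. The 13 other alpha genes stayed at or under 0.319 FPKM. Alpha genes share between 38.9 and 91.4% of their exonic length with neighbours on the same strand, so values of single alpha genes are uncertain as well. One of the rows carrying the symbol Pcdha11 is named Pcdha10 in the file's second symbol column, and they were kept as separate genes.

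**Figure D4:**
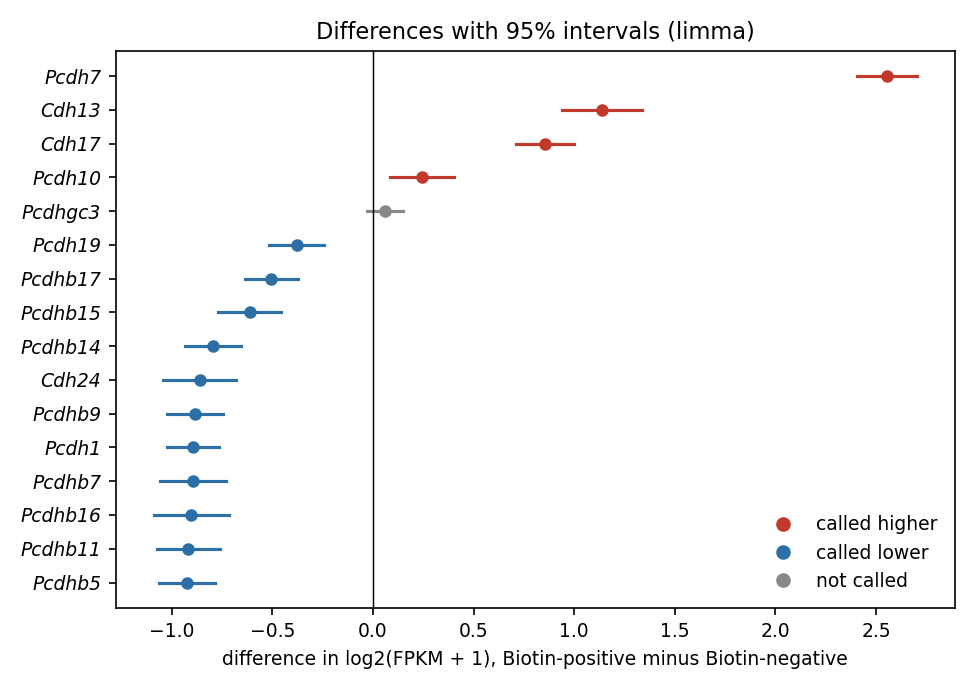
Difference in log2(FPKM + 1), Biotin-positive minus Biotin-negative (horizontal axis), for the 16 tested members, with lines for the 95% interval of the limma fit. The interval of Pcdhgc3 spans 0, those of 4 genes lie above 0 and those of 11 below it.

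Partners of these receptors were read from 8 gene lists with 124 entries. For the counts below, 73.9% of all tested genes were called, 37.8% as higher and 36.1% as lower. Ptprk, Perp and Twist1 entered the test through the Biotin-positive group alone, and Ptprf through the Biotin-negative group alone. The p-values of these genes are therefore no independent support for their differences. Catenins and their junction partners went both ways, 7 up, 5 down and 5 not called of 17 tested (median log2 difference 0.05, against 0.01 over all tested genes). Beta-catenin, Ctnnb1, the armadillo protein that binds classical cadherin tails, stood at 94.8 ± 1.51 FPKM in Biotin-positive and 118 ± 1.496 FPKM in Biotin-negative cells and fell (limma adjusted p = 1.19e-05). Alpha-catenin, Ctnna1, at 72.8 ± 3.70 FPKM in Biotin-positive and 72.5 ± 2.56 FPKM in Biotin-negative cells, was not called (limma adjusted p = 0.896). Both catenins were chosen for their role after their values were seen. The actin-binding junction protein vinculin, Vcl, rose to 15.2 ± 0.358 FPKM in Biotin-positive cells, against 7.94 ± 0.795 FPKM in Biotin-negative cells (limma adjusted p = 4.64e-06). Of the receptor phosphatases, Ptprk was at 3.77 ± 0.385 FPKM in Biotin-positive and 0.0151 ± 0.0193 FPKM in Biotin-negative cells (limma adjusted p = 4.01e-08). Ptprf fell to 0.643 ± 0.0940 FPKM in Biotin-positive cells, against 5.01 ± 0.224 FPKM in Biotin-negative cells (limma adjusted p = 5.60e-08; SD, n = 3 each throughout).

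Nectins, immunoglobulin-type receptors that act at junctions beside cadherins, were mostly higher. Of 6 tested nectins and nectin-like molecules 5 rose, against 37.8% of all tested genes, and Cadm1 was not called (median log2 difference 0.49). Of these, Nectin3 entered the test through the Biotin-positive group alone, so its p-value is no independent support for a rise. Nectin3 was at 1.24 ± 0.0830 FPKM in Biotin-positive and 0.0131 ± 0.0155 FPKM in Biotin-negative cells (limma adjusted p = 5.59e-07). Pvr, a nectin-like receptor, rose to 46.3 ± 1.34 FPKM in Biotin-positive cells, against 30.3 ± 0.974 FPKM in Biotin-negative cells (limma adjusted p = 1.52e-06). Nectin2 was at 49.3 ± 1.98 FPKM in Biotin-positive and 21.8 ± 1.13 FPKM in Biotin-negative cells (limma adjusted p = 1.22e-07).

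Desmosomal cadherins were low, and of the 16 genes of their list 3 were tested and 5 were listed at 0 throughout. The highest desmosomal cadherin, Dsg3, was at 0.365, 0.416 and 0.274 FPKM in Biotin-positive libraries. In Biotin-negative libraries Dsg3 was at 0.0428, 0.0223 and 0.0471 FPKM, without overlap. It missed the filter and is named here after its values were seen. The plaque gene Pkp2 rose to 9.33 ± 0.353 FPKM in Biotin-positive cells, against 7.87 ± 0.448 FPKM in Biotin-negative cells (limma adjusted p = 0.00653). The plakin gene Ppl fell to 1.06 ± 0.0832 FPKM in Biotin-positive cells, against 1.92 ± 0.209 FPKM in Biotin-negative cells (limma adjusted p = 0.000257). Perp, a membrane protein of desmosomes, was at 2.59, 2.59 and 2.50 FPKM in Biotin-positive libraries, while all 3 Biotin-negative libraries listed it at 0 (limma adjusted p = 2.92e-08). Among other cadherin superfamily receptors 4 were tested, of which Clstn3 rose and Cdhr5, Fat1 and Clstn1 fell (median -0.34). The giant cadherin Fat1 was at 16.4 ± 0.607 FPKM in Biotin-positive and 22.3 ± 0.465 FPKM in Biotin-negative cells (limma adjusted p = 2.23e-05). Cdhr5, a cadherin of intestinal microvilli, was at 4.10 ± 0.297 FPKM in Biotin-positive and 7.21 ± 0.528 FPKM in Biotin-negative cells (limma adjusted p = 2.61e-05). Clstn3, calsyntenin 3, was at 10.2 ± 0.665 FPKM in Biotin-positive and 6.86 ± 0.880 FPKM in Biotin-negative cells (limma adjusted p = 0.000716).

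**Figure D5:**
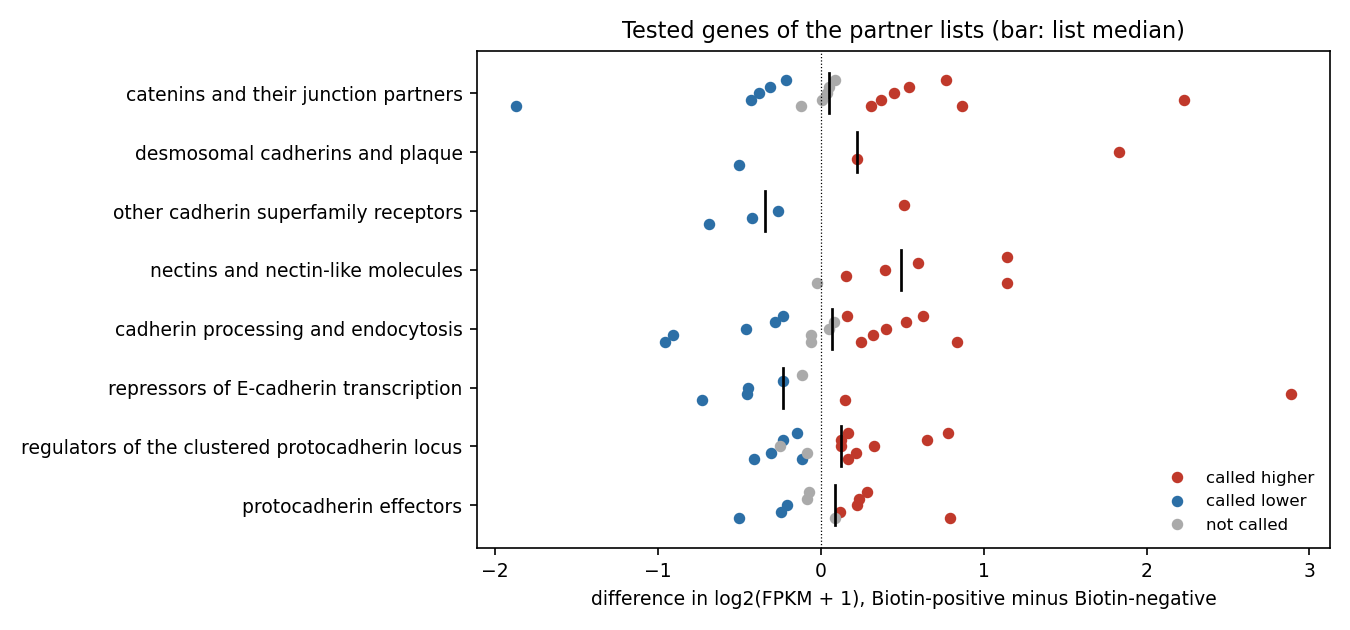
Difference in log2(FPKM + 1), Biotin-positive minus Biotin-negative (horizontal axis), for the tested genes of 8 partner lists, coloured by call, with a bar at each list's median. Nectins lie mostly to the right, and the other lists hold genes on both sides of 0.

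Genes of cadherin shedding and endocytosis were split, with 7 rises, 5 falls and 4 not called of 16 tested (median 0.07). The membrane protease gene Mmp14 fell to 59.3 ± 1.57 FPKM in Biotin-positive cells, against 116 ± 5.44 FPKM in Biotin-negative cells (limma adjusted p = 1.36e-07), and the presenilin gene Psen2 to 3.32 ± 0.418 FPKM in Biotin-positive cells, against 7.14 ± 1.01 FPKM in Biotin-negative cells (limma adjusted p = 5.79e-05). Numbl, an endocytic adaptor, rose to 15.4 ± 0.651 FPKM in Biotin-positive cells, against 8.17 ± 0.284 FPKM in Biotin-negative cells (limma adjusted p = 9.85e-07). Of 7 tested repressors of E-cadherin transcription, 2 rose, 4 fell and 1 was not called (median -0.23). The 3 not tested are named here after their values were seen. Zeb1 was at 1.36, 1.17 and 0.921 FPKM in Biotin-positive and 0.109, 0.111 and 0.248 FPKM in Biotin-negative libraries, without overlap. Klf8 stayed at or under 0.338 FPKM in every library, and Gsc was listed at 0 throughout. Snai2 was at 17.7 ± 0.644 FPKM in Biotin-positive and 24.7 ± 1.07 FPKM in Biotin-negative cells (limma adjusted p = 2.70e-05). Tcf4 was at 12.2 ± 2.95 FPKM in Biotin-positive and 20.6 ± 0.738 FPKM in Biotin-negative cells (limma adjusted p = 0.000922). Twist1 was at 6.52, 6.78 and 5.92 FPKM in Biotin-positive libraries, while all 3 Biotin-negative libraries listed it at 0 (limma adjusted p = 5.90e-09).

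All 15 regulators of the clustered protocadherin locus reached testing, with 8 rises, 5 falls and 2 not called (median 0.12), or 5 rises and 7 falls with libraries rescaled to an equal sum. The insulator protein gene Ctcf, whose product selects protocadherin promoters, was at 27.1 ± 0.493 FPKM in Biotin-positive and 30.2 ± 1.28 FPKM in Biotin-negative cells (limma adjusted p = 0.00908); it was chosen for its role after its value was seen. The cohesin subunit gene Rad21 rose to 65.4 ± 1.79 FPKM in Biotin-positive cells, against 41.3 ± 2.77 FPKM in Biotin-negative cells (limma adjusted p = 4.40e-06). Of the DNA methyltransferases, Dnmt1 rose to 46.3 ± 0.603 FPKM in Biotin-positive cells, against 26.5 ± 0.636 FPKM in Biotin-negative cells (limma adjusted p = 1.43e-07). Dnmt3a fell to 1.55 ± 0.0860 FPKM in Biotin-positive cells, against 2.39 ± 0.162 FPKM in Biotin-negative cells (limma adjusted p = 0.000406). Of 11 tested protocadherin effectors 5 rose, 3 fell and 3 were not called (median 0.09), or 4 rose and 5 fell with libraries rescaled to an equal sum. Of the WAVE complex genes, Cyfip1 rose to 22.8 ± 0.167 FPKM in Biotin-positive cells, against 12.7 ± 0.290 FPKM in Biotin-negative cells (limma adjusted p = 2.69e-07). Nckap1 rose to 55.9 ± 0.389 FPKM in Biotin-positive cells, against 45.7 ± 0.946 FPKM in Biotin-negative cells (limma adjusted p = 3.72e-05). The kinase gene Ptk2b fell to 2.47 ± 0.125 FPKM in Biotin-positive cells, against 3.90 ± 0.294 FPKM in Biotin-negative cells (limma adjusted p = 0.000152; SD, n = 3 each).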

How the data were processed

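Per the submitters' processing notes, the tools were cutadapt 1.9.1, HISAT2 2.2.1 and HTSeq 0.6.1, and the build named is GRCm39. The deposited values are FPKM per gene and library, made by the authors. The program that made them, the denominator, the counting mode and the strand setting are not given in the sources used here. Gene coordinates in the file were identical to GENCODE vM21, which is on GRCm38, for 99.1% of the 21887 identifiers found there and for all 91 members, so coordinates here are GRCm38. Low values showed no steps of single reads, so no reads were recovered and the depth is unknown.

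Values were tested as log2(FPKM + 1) with limma 3.58.1 in R 4.3.3 (eBayes with a trend, two-sided, Benjamini-Hochberg adjustment over all 11029 tested genes), between groups given by the labels. A gene had to reach 1 FPKM in 3 or more libraries. A log2 difference on this scale understates the change of low genes. The procedure was tested on simulated data. All 6 libraries carry 1 batch label. Shared exons were taken from GENCODE vM21, and near-identical transcript matches were searched with blastn 2.17.0 (at least 100 bases, 98% identity). Members, lists and tests were chosen with earlier results of these data known. Every tested member is named, with the 10 highest others, and of each partner list the 3 called genes with the largest change. Near-zero members outside that rule, Cdh1, Cdh3, Cdh4, Cdh15, Cdh11, Pcdh15 and Pcdhb1, were chosen after their values were seen. Of other markers, Krt7, Krt8 and the highest called marker per list are given. Tables were made with Python 3.11.15, pandas 2.3.3, scipy 1.17.1 and numpy 2.4.6, and figures with matplotlib 3.10.9.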

Additional observations from a re-analysis of the deposited data

How the results depend on the processing

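Under pseudocounts of 0.1 and 0.5, 3 other scalings, no trend and a robust prior, 11 members were called lower in every case and 4 higher, or 3 with quantile normalization, where Pcdh10 was lost. Leaving out each library in turn gave 4 and 11 members in each case, and between 3883 and 4046 genes higher and between 3739 and 3857 lower over all genes. The filter set the member counts. With no filter 7 members were higher and 24 lower of 81 above 0, against 4846 and 4374 of all 17058 genes, and among genes of at least 0.1 FPKM 6 were higher and 21 lower of 33, against 4746 and 4384 of 13103. With a minimum of 5 FPKM 4 members were tested, of which 0 were higher and 3 lower by limma, against 3420 and 3172 of 8577, since the members that rose lie under that minimum or reach it in fewer than 3 libraries. With the minimum on the mean over 6 libraries, chosen after seeing the data, 2 members were higher and 10 lower, against 4055 and 3937 of 10869 genes. At a log2 difference of at least 1 in size, 2 members were higher and 0 lower, and 583 genes were higher and 376 lower over all genes. With the added value of 1, such a difference understates the change of low genes. For Pcdhb14 it was -0.79, although the Biotin-negative mean was 4.23 times the Biotin-positive mean. A mean of at least 0.1 FPKM in a group was reached by 38 members, and 0.5 FPKM by 22. The log2 difference of Pcdhgc3 was -0.000454 with libraries rescaled to an equal sum. Deviations of libraries with equal replicate numbers were weakly correlated (0.0371, 0.0120 and 0.0143 for numbers 1, 2 and 3). Biotin-positive replicates 1 and 2 correlated best with the Biotin-negative library of their own number, and replicate 3 with Biotin-negative replicate 2 (0.0341). With the replicate block 4 members were higher and 11 lower, and 4113 genes were higher and 3927 lower over all genes. Of the partner list counts, 25 moved by more than 1.5 times and 279 did not. The depth is unknown, so how finely values near 0 are resolved cannot be stated.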

Other observations

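Markers of cell types in which cadherins and protocadherins are well known were read from the same libraries. Of 10 neural markers 2 were tested and rose in Biotin-positive cells, where 37.8% of all tested genes were called higher. Both entered the test through the Biotin-positive group alone, so their calls are no independent support for a rise. The beta-tubulin gene Tubb3 was at 4.88, 5.28 and 4.80 FPKM in Biotin-positive libraries, and Map2, a microtubule-associated protein, at 1.58, 1.67 and 1.61 FPKM in the same libraries. All 3 Biotin-negative libraries listed both at 0. Snap25, Elavl4, Nefl and Olig2 were listed at 0 in all 6 libraries. Of 8 skeletal muscle markers the actin gene Acta1 rose to 12.5 ± 0.878 FPKM in Biotin-positive cells, against 1.57 ± 0.241 FPKM in Biotin-negative cells, and desmin, Des, fell to 8.99 ± 0.573 FPKM in Biotin-positive cells, against 12.01 ± 0.299 FPKM in Biotin-negative cells (SD, n = 3 each), while Myod1, Myog and Mymk were listed at 0 throughout. Of 8 immune markers Lyz2 (2.42 ± 0.199 FPKM in Biotin-positive and 1.36 ± 0.164 FPKM in Biotin-negative cells) rose and Cd68 (7.13 ± 0.805 FPKM in Biotin-positive and 8.59 ± 0.864 FPKM in Biotin-negative cells) fell, with limma adjusted p of 0.000231 and 0.0402. The ranges of the groups overlapped for Cd68 but not for Lyz2.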
